A study of Rattus norvegicus with 18 samples.

Results

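The inhibitor of kappaB (IkB) family was read in rat cortical collecting ducts as 5 genes, Nfkbia, Nfkbib, Nfkbie, Nfkbiz and Bcl3, taken by symbol from a table of 32883 genes. Each symbol matched 1 row. Cortical collecting ducts, the tubule segments that set the final salt, acid and water content of urine, had been dissected by hand from kidneys of male Sprague-Dawley rats 3 h after lipopolysaccharide (LPS), a bacterial outer membrane component, or normal saline as vehicle was injected into the peritoneum. Each of the 2 groups, LPS and Vehicle, held 3 numbered samples, each sequenced as 3 libraries, 18 libraries in all, and the design text calls the groups paired. No genetic change is named in either group. The sources used here give neither the LPS dose nor the age of the rats. They do not say whether the numbered samples came from separate rats or what links a pair. The p-values therefore reflect only how these samples vary, which may be technical variation.

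IkB proteins carry a run of ankyrin repeats with which they hold NF-kappaB, the transcription factor family that switches on inflammatory genes. The cytoplasmic members IkB alpha (gene Nfkbia), IkB beta (Nfkbib) and IkB epsilon (Nfkbie) keep NF-kappaB out of the nucleus until the IkB kinase complex marks them for destruction, which bacterial products acting on Toll-like receptors set off. The nuclear members IkB zeta (Nfkbiz) and Bcl-3 (Bcl3) instead bind p50 or p52 dimers on DNA and can raise or lower transcription. Several IkB genes are themselves NF-kappaB targets, which is known as negative feedback.

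The promoters of the family are shown because 4 of the 5 genes were called higher with LPS in the comparison that follows. The call of Bcl3 is not counted as support there, and the sizes of the changes differed. The sequences are RefSeq's, from the rat build GRCr8, and all 5 genes had an entry. Each line gives the last 200 bases before the annotated start, 5′ to 3′ on the strand of the gene, with capitals where the bases fit the kappaB consensus on either strand.

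Nfkbia, chr6:78597073-78597272, minus strand: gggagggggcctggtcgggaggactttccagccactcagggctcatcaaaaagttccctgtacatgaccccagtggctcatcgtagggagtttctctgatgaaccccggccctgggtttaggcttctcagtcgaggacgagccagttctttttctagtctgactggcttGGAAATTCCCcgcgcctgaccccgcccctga
Nfkbie, chr9:22947873-22948072, minus strand: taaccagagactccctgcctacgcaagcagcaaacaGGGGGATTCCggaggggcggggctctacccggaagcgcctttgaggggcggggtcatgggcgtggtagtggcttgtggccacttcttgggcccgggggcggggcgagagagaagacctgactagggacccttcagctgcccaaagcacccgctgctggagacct
Nfkbiz, chr11:58251521-58251720, plus strand: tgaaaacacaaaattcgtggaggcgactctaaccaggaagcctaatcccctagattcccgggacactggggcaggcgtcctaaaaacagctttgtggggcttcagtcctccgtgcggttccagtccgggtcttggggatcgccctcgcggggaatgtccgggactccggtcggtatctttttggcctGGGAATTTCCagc
Bcl3, chr1:88613556-88613755, minus strand: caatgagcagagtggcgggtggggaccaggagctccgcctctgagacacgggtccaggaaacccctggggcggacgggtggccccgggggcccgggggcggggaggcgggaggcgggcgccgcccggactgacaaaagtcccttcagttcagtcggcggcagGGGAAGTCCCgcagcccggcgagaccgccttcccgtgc
Nfkbib, chr1:93181388-93181587, minus strand: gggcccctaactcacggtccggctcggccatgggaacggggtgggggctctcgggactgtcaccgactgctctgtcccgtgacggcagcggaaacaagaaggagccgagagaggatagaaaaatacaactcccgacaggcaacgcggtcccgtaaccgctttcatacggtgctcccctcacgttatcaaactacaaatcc

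In windows of 250 bases before the start, the kappaB consensus was found 1 time in each of Nfkbia, Nfkbie, Nfkbiz and Bcl3 and 0 times in Nfkbib. It was present in 3.54% of the 33469 promoters of that length and in 3.83% of the 21842 promoters of protein-coding genes. The match lay at positions -31 to -22 relative to the start in Nfkbia, at -164 to -155 in Nfkbie, at -13 to -4 in Nfkbiz and at -38 to -29 in Bcl3. Read on the strand that fits, Nfkbia and Nfkbiz held the same letters, GGGAATTTCC, while Nfkbie held GGGGGATTCC and Bcl3 held GGGACTTCCC. A looser pattern of GGG, any 5 bases and CC, which every consensus match also fits, was present in all 5 windows, Nfkbib included. This looser pattern was present in 42.3% of all promoters and in 47.5% of those of protein-coding genes. These matches are letters in a window and not measured binding. The windows and the consensus were chosen after the data were seen, so the split between members is not counted as support. Nfkbib, which had no consensus match, also stood higher with LPS in every sample, as given below.

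LPS-treated ducts carried more RNA of Nfkbia, Nfkbie, Nfkbiz and Bcl3. By limma these 4 were higher with LPS at an adjusted p under 0.05, and Nfkbib was not called. Of all 12393 genes tested 7.17% were called higher and 22.2% lower, 29.4% in either direction, and the tested genes as a whole had a median log2 change of -0.38. Bcl3 passed the filter on low values (1 TPM or more as the mean of the 18 libraries) only through its level in LPS and so had to differ, so its call is not counted as support. In Nfkbia, Nfkbib and Nfkbie the 9 LPS libraries all lay above the 9 Vehicle libraries, which was so for 5.12% of tested genes. In Nfkbiz they overlapped. Bcl3 was separate as well, but for the same reason as its call this is not counted. Libraries of the same numbered sample are not separate units, so these separations are a description and not a test. TPM, a relative transcript abundance, is corrected for transcript length, so levels of different genes can be set side by side.

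**Figure D1:**
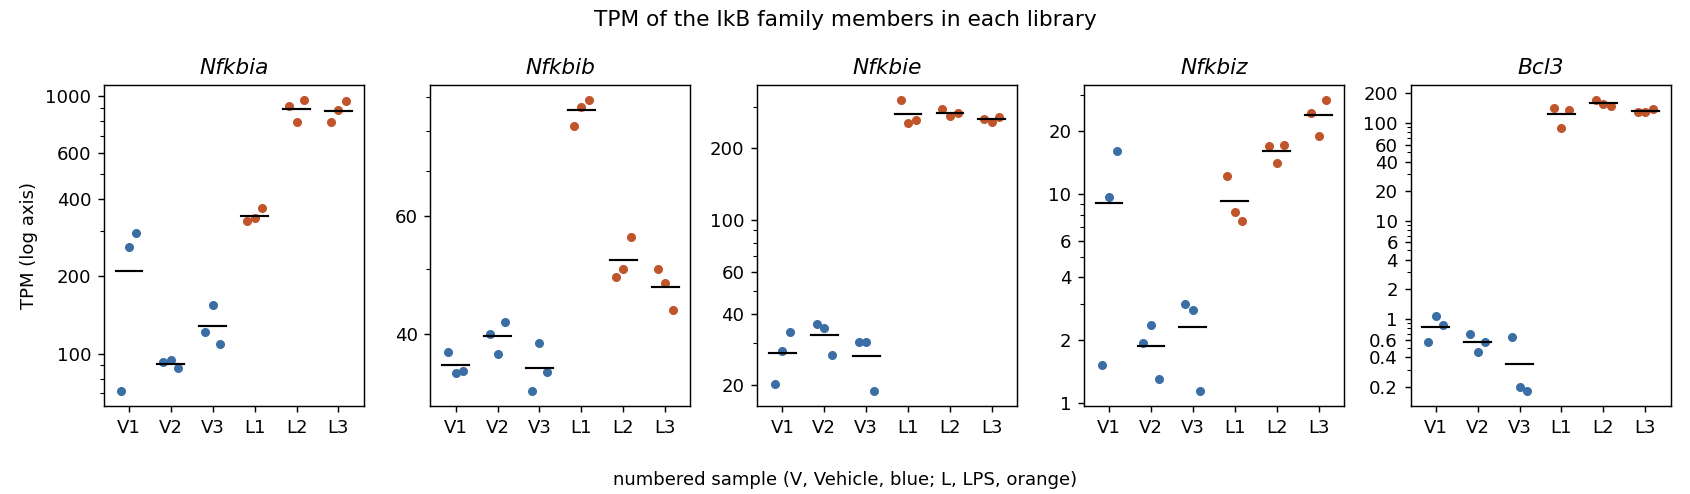
TPM of each IkB family member in each of the 18 libraries, on a log axis that differs between panels. Points are libraries, and black lines are the means of the 3 libraries of a numbered sample. Nfkbie stands at nearly the same level in the 3 LPS samples, and Bcl3 at 122.6, 159 and 133 TPM in LPS 1, 2 and 3. Nfkbia and Nfkbiz are also lowest, and Nfkbib highest, in LPS 1.

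Among the cytoplasmic inhibitors, Nfkbia (ENSRNOG00000007390) was the most abundant in both groups. It stood at 208.5, 91.5 and 128 TPM in Vehicle 1, 2 and 3 and at 343.5, 894 and 879 TPM in LPS 1, 2 and 3. The lowest LPS library, at 329 TPM, lay only a little above the highest Vehicle library, at 295 TPM. The mean went from 143 ± 59.8 to 705 ± 313 TPM (SD, n = 3), a 4.94-fold rise, and the log2(TPM + 1) change was 2.33 (SE 0.399, limma adjusted p = 0.0119). In pair 1 the change was 0.957, against 3.27 and 2.78 in pairs 2 and 3. The call was lost without replicate 3, where the change was 2.11 with adjusted p = 0.277 by limma, and held without replicate 1 (3.02) or replicate 2 (1.87).

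Nfkbie (ENSRNOG00000019907), whose product also holds NF-kappaB in the cytoplasm, moved further and more evenly. It stood at 27.1, 32.6 and 26.4 TPM in Vehicle and at 280, 283 and 266 TPM in LPS. The ranges of the libraries were far apart, 18.8 to 36.1 TPM in Vehicle and 255 to 322 TPM in LPS. The rise of the mean was 9.62-fold, with a log2 change of 3.25 (SE 0.158, limma adjusted p = 0.000209), and 3.34, 3.09 and 3.31 in the 3 pairs. The SD between LPS samples was 0.0457 (log2), below the median of 0.254 over all tested genes. Without replicate 3 the change was 3.22 with adjusted p = 0.197 by limma; in that fit of 2 pairs 0 genes were called at all, with 738 higher and 1463 lower at an unadjusted p under 0.05.

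Nfkbib (ENSRNOG00000020063), the gene of IkB beta, showed the smallest difference. It stood at 36.1, 39.8 and 35.7 TPM in Vehicle and at 86.0, 51.5 and 47.1 TPM in LPS, so the groups did not overlap and LPS 1 was the highest. The mean was 1.66-fold higher, and the log2 change of 0.66 (SE 0.223) missed the threshold with limma adjusted p = 0.0611. The change was 1.23 in pair 1 and 0.364 and 0.393 in pairs 2 and 3. Against the median of all tested genes, it was 1.04 above it. Nfkbib passed the threshold when the libraries were scaled by their median ratio (1.06, adjusted p = 0.0342 by limma) or by quantile normalization (0.89, adjusted p = 0.0485), which moved the median of all tested genes from -0.38 to -0.02 and -0.12.

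Bcl3 (ENSRNOG00000043416), whose nuclear product is a coactivator or corepressor on p50 and p52 and is known from B-cell leukaemia, stood at 0.823, 0.573 and 0.34 TPM in Vehicle and at 122.6, 159 and 133 TPM in LPS. The highest Vehicle library was at 1.05 TPM and the lowest LPS library at 89.7 TPM. The log2(TPM + 1) change was 6.46 (SE 0.214), and the pairs gave 6.06, 6.67 and 6.66. Without the 1 TPM filter, all 23716 genes above 0 TPM in any library were tested, so genes listed at 0 in Vehicle entered through LPS. Bcl3, above 0 in Vehicle, entered by its Vehicle level too, and limma gave it an adjusted p of 0.016. On the ratio of mean TPM it was 238-fold, a value that rests on a Vehicle level under 1 TPM, and the log2 change was 4.66 with a pseudocount of 5 and 7.78 with a pseudocount of 0.1. Without replicate 3 the change was 6.36 with adjusted p = 0.197 by limma.

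Nfkbiz (ENSRNOG00000031163), the other nuclear member and an inducible gene needed in other cells for later response genes, was the member with the least even rise. It stood at 9.14, 1.87 and 2.31 TPM in Vehicle and at 9.31, 16.1 and 24.0 TPM in LPS. LPS 1 was barely above Vehicle 1, and the libraries of the groups overlapped, from 1.14 to 16.1 TPM in Vehicle and from 7.48 to 28.4 TPM in LPS. The log2 change was 1.97 (SE 0.474, limma adjusted p = 0.0276), with 0.383, 2.59 and 2.95 in the pairs. The call was lost under both scalings (2.31 in each, adjusted p = 0.0712 and 0.0671 by limma), without replicate 2 (1.67, adjusted p = 0.134), without replicate 3 (1.49, adjusted p = 0.303) and without library 1 of Vehicle 1 (1.71, adjusted p = 0.099).

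**Figure D2:**
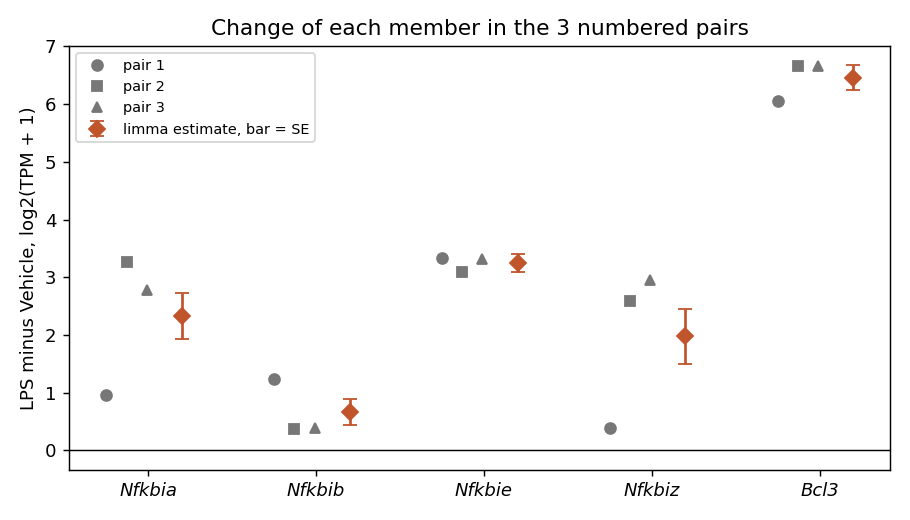
LPS minus Vehicle on the log2(TPM + 1) scale for each member. Grey symbols are the 3 numbered pairs, and orange diamonds with bars are the limma estimate and its SE. Pair 1 is lowest for Nfkbia (0.957) and Nfkbiz (0.383) and highest for Nfkbib (1.23), while the pairs lie close together for Nfkbie and Bcl3.

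The order of the members by level changed with LPS. In Vehicle the mean levels ran from Nfkbia (143 TPM) through Nfkbib (37.2 TPM), Nfkbie (28.7 TPM) and Nfkbiz (4.44 TPM) to Bcl3 (0.579 TPM). All neighbours in that order were separate over the 3 sample values. In LPS they ran from Nfkbia (705 TPM) through Nfkbie (276 TPM), Bcl3 (138 TPM) and Nfkbib (61.5 TPM) to Nfkbiz (16.5 TPM), again without overlap between neighbours. Nfkbie stood below Nfkbib in each of the 3 Vehicle samples and above it in each of the 3 LPS samples. Bcl3, at the 1.76 percentile of tested genes by level in Vehicle, was at the 90.2 percentile in LPS. As Bcl3 passed the filter only through LPS, a low rank in Vehicle was fixed in advance. The 20490 genes below the filter are not ranked.

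The summed TPM of the 3 cytoplasmic inhibitors was higher in each LPS sample than in any Vehicle sample. It was 272, 164 and 190 TPM in Vehicle and 710, 1228 and 1192 TPM in LPS. The two-sided exact permutation test over the 6 samples gave p = 0.1, the smallest that 3 against 3 allows. Nfkbie made up 9.99%, 19.9% and 13.9% of the sum in Vehicle 1, 2 and 3 and 39.5%, 23.0% and 22.3% in LPS 1, 2 and 3, without overlap (exact permutation p = 0.1). The difference of its means was 13.7 percentage points with all samples and 5.77 without replicate 1. Nfkbib made up 18.8% ± 5.50 and 6.75% ± 4.64 (SD, n = 3; exact permutation p = 0.1), a difference of -12.0 points with all samples and -7.97 without replicate 2. Nfkbia was the largest component in every sample, at 66.6% ± 10.5 and 65.0% ± 14.3 (exact permutation p = 0.8). Its share in LPS 1 was 48.4%, against 72.8% and 73.7% in LPS 2 and 3. Without replicate 1 the difference in the Nfkbia share turned from -1.68 to 11.7 percentage points.

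**Figure D3:**
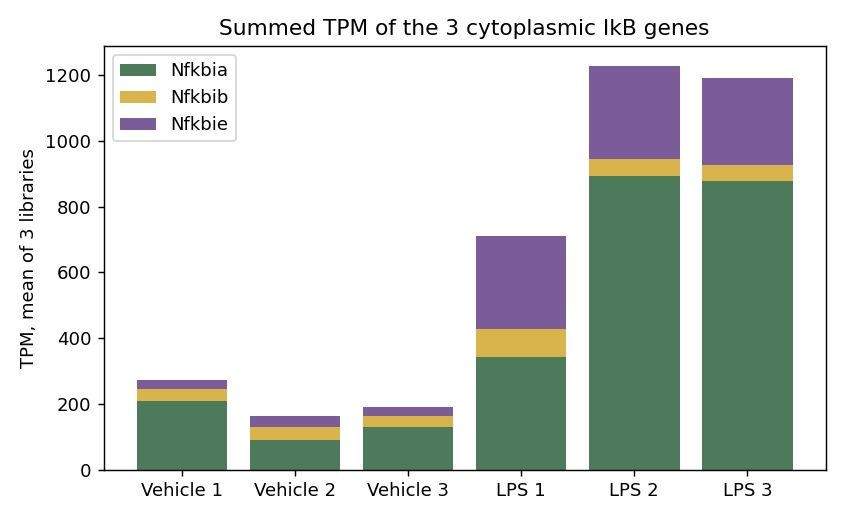
Stacked TPM of Nfkbia, Nfkbib and Nfkbie in each numbered sample, as means of 3 libraries, on a linear axis from 0. The sums in LPS lie between 710 and 1228 TPM and in Vehicle between 164 and 272 TPM, and Nfkbia is the largest segment throughout.

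The NF-kappaB subunit genes, whose products the inhibitors bind, were called higher too, in 5 of 5 members, beside 7.17% of all tested genes. Their median log2 change was 2.55, against -0.38 over all tested genes. Rel passed the filter only through LPS and had to differ. Relb rose by 4.38 (from 8.17 ± 1.55 to 187 ± 8.64 TPM), Nfkb2, the p100 precursor gene, by 3.70 and Nfkb1, the p105 precursor gene, by 2.55 (SD, n = 3; limma adjusted p from 0.000122 to 0.0033). Rela, the most abundant subunit gene in Vehicle, rose by 0.99, from 69.2 ± 6.85 to 138 ± 9.46 TPM, with no call without replicate 2 (0.96, limma adjusted p = 0.0544). Rel went from 0.534 ± 0.203 to 2.07 ± 0.301 TPM, and without a filter it was not called (0.98, limma adjusted p = 0.105). The summed TPM of the 5 subunit genes was 108 ± 10.6 in Vehicle and 603 ± 53.9 in LPS. The ratio of inhibitor to subunit TPM was 2.83, 1.48 and 1.63 in Vehicle and 1.29, 1.87 and 1.99 in LPS. These ratios overlapped, and they did not separate the groups (exact permutation p = 0.8). The difference in the ratio was -0.265 with all samples and 0.372 without replicate 1. Set against Rela alone, the same inhibitor sum gave ratios of 4.42, 2.28 and 2.56 in Vehicle and 5.52, 8.33 and 8.67 in LPS. The ratios to Rela did not overlap between the groups (exact permutation p = 0.1), so the outcome depends on the subunit genes in the denominator.

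Of the other genes with an IkB fold, the precursors Nfkb1 and Nfkb2 were called higher, as given above; their products carry inhibitory ankyrin repeats at the carboxy end. Nfkbid, the gene of the nuclear IkB NS, did not pass the filter, with Vehicle at 0.288 ± 0.129 TPM and LPS at 0.998 ± 0.195 TPM (SD, n = 3). Nfkbil1, named for a likeness to IkB, stood at 7.77 ± 1.78 and 5.41 ± 1.12 TPM and was not called (limma adjusted p = 0.229).

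Of the IkB kinase complex and the kinases above it, 4 of 13 genes were higher and 1 lower, with a median log2 change of -0.12, beside 7.17% higher, 22.2% lower and a median of -0.38 over all tested genes. One of the 4, Map3k14, passed the filter only through LPS and had to differ, and without replicate 2 the list had 0 called by limma in either direction. Among the core subunits, Ikbkb went from 25.1 ± 2.95 to 39.1 ± 8.47 TPM without a call (limma adjusted p = 0.058). It was called under median-ratio scaling (1.0, adjusted p = 0.0486), quantile normalization (0.89, adjusted p = 0.0476) and without the replicate block (adjusted p = 0.0467 by limma). Chuk and Ikbkg were not called. Map3k8, which encodes the kinase TPL2, rose by 1.98 (limma adjusted p = 0.0164) and Ripk1, a kinase below the TNF receptor, by 1.47 (adjusted p = 0.0197). Tab1, the gene of a TAK1 partner, fell by 1.08 on the log2 scale (adjusted p = 0.0188), and by 0.70 without a call (adjusted p = 0.0517) under median-ratio scaling. Without replicate 2 none of these 3 was called, at 1.71, 1.06 and -1.03 (limma adjusted p = 0.0715, 0.118 and 0.141).

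Genes for the destruction of IkB proteins were called lower in 2 of 15 and higher in 0 by limma. That is below the 22.2% of all tested genes called lower, and the list's median log2 change of -0.26 lay above the -0.38 of all tested genes, so the counts set the list apart in neither direction. Uba3, of the NEDD8 activating enzyme, fell by 0.79 and Ube2d1, a ubiquitin-conjugating enzyme gene, by 1.06 (limma adjusted p = 0.0233 and 0.0312). Neither was called under median-ratio scaling, at -0.39 and -0.69, or without replicate 2, at -0.83 and -0.79. Skp1, a core part of the ubiquitin ligase that recognises phosphorylated IkB, had 1174 ± 13.3 TPM with Vehicle against 988 ± 136 TPM with LPS (SD, n = 3; not called), and the genes of the recognition subunits, Btrc and Fbxw11, were not called either.

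At the receptors and adaptors that feed this pathway, 5 of 14 tested genes were higher and 1 lower, beside 7.17% and 22.2% of all tested genes. Tlr2 rose by 2.78, Myd88, the common adaptor gene, by 2.02 and Irak2 by 1.58 (limma adjusted p = 0.000772, 0.00233 and 0.00291). Tradd, an adaptor gene of the TNF receptor, fell by 1.25 on the log2 scale (adjusted p = 0.017) and by 0.86 under median-ratio scaling, where it was not called (adjusted p = 0.054). It was not called without replicate 2 either (-1.13, limma adjusted p = 0.107). Traf2 was, over both groups together, the most abundant gene without a call, at 42.6 ± 2.55 and 57.3 ± 10.1 TPM (SD, n = 3). Tlr4, the LPS receptor gene, was below the filter, and Ly96 and Ticam1 were not analysed here.

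Other feedback regulators of NF-kappaB were called higher in 5 of 11 tested genes and lower in 0, beside 7.17% and 22.2% of all tested genes. Their median log2 change was 0.88, against -0.38 over all tested genes. Without replicate 2 the list had 2 called higher. Tnfaip3, which encodes the ubiquitin-editing enzyme A20, rose by 3.59 from 1.304 ± 0.802 to 27.5 ± 12.9 TPM, N4bp1 by 1.64 and Tnip2, an A20-binding protein gene, by 1.5 (SD, n = 3; limma adjusted p = 0.00342, 0.00274 and 0.013). Tnip2 was not called without replicate 2 (1.18, limma adjusted p = 0.0885). Zc3h12a, an RNase gene known for cutting Nfkbiz RNA, stood at 2.76, 1.66 and 1.29 TPM in Vehicle and at 4.68, 12.1 and 11.9 TPM in LPS, and rose by 1.81 (limma adjusted p = 0.0207). It was named after its values were seen, and was not called without replicate 2 (1.56, limma adjusted p = 0.103) or under median-ratio scaling (2.12, adjusted p = 0.0562). Zfp36 was the most abundant gene of this list, at 717 ± 364 and 1580 ± 895 TPM, and was not called (1.15, limma adjusted p = 0.125). Its change was 2.06 without replicate 1 (adjusted p = 0.0203), 1.64 without libraries 2 and 3 of Vehicle 1 (adjusted p = 0.0254) and 0.47 without replicate 2 (adjusted p = 0.461 by limma).

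Genes known from other cells to need IkB zeta passed the filter in 4 of 7. Il6 and Csf3 did so only through LPS and had to differ, so no test is given for them. Lcn2, the iron-binding lipocalin gene, rose by 7.39 and Ccl20, a chemokine gene, by 7.43 (limma adjusted p = 0.000389 and 4.9e-05). Il6 was listed at 0 in all Vehicle libraries and stood at 1.24, 5.70 and 2.96 TPM in LPS. In LPS 1, where Nfkbiz was lowest among the LPS samples, Lcn2 stood at 179 TPM against 1024 and 515 TPM. Csf3 stood there at 1.55 TPM against 79.8 and 45.8 TPM, below the 2.01 TPM of Vehicle 1. Ccl20 was highest there, at 1129 TPM against 688 and 956 TPM. Low values in LPS 1 were not particular to this list. Tnfaip3 stood there at 12.5 TPM against 34.8 and 35.1 TPM, and Nfkb1 at 63.6 TPM against 182 and 149.5 TPM. Nfkb2, at 161 TPM against 139 and 133 TPM, and Relb, at 195 TPM against 188 and 178 TPM, were highest there. Nfkbiz was at nearly the same level in Vehicle 1 (9.14 TPM) as in LPS 1 (9.31 TPM), while Lcn2 was at 1.88 TPM in Vehicle 1. A link of these genes to Nfkbiz was not tested.

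Genes with the pattern most like a member were taken as the 3 with the smallest root mean square difference to it over the 6 numbered samples, after each gene was centred on its Vehicle mean on the log2(TPM + 1) scale. For Nfkbia they were Ifitm1 (0.154), Tnfrsf1b (0.240) and Shfl (0.251). For Nfkbiz they were Map3k8 (0.201), Serpinb9 (0.258) and Spats2l (0.336). Nfkbie was nearest to Ripk2 (0.165), Stx11 (0.262) and Tent5a (0.314), and Bcl3 to Birc3 (0.321), Ccl2 (0.357) and MGC108823 (0.502). For Nfkbib they were Slamf9 (0.138), Pawr (0.140) and LOC100912564 (0.163). Within the family the closest pair was Nfkbia and Nfkbiz, at 0.399, and the next closest Nfkbia and Nfkbie, at 0.870. These distances describe the same samples from which the changes were computed. Tnfrsf1b, Stx11, Tent5a, Slamf9 and Ccl2 had Vehicle means under 1 TPM and, like Bcl3 itself, passed the filter only through LPS. Near 0 the scale understates changes, so genes with unlike folds can lie close. Tnfrsf1b, for example, went from 0.301 to 5.52 TPM, beside 143 to 705 TPM for Nfkbia.

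The Vehicle samples were not alike for 2 of the members. In Vehicle 1, Nfkbia stood at 71.3 TPM in library 1 but at 260 and 295 TPM in libraries 2 and 3, and Nfkbiz at 1.53 TPM in library 1 but at 9.76 and 16.1 TPM in libraries 2 and 3. The 6 libraries of Vehicle 2 and 3 lay between 87.7 and 155 TPM for Nfkbia and between 1.14 and 3.00 TPM for Nfkbiz. In the same 2 libraries Nfkbie, at 27.9 and 33.5 TPM, and Nfkbib, at 35.1 and 35.4 TPM, lay within the range of the other Vehicle libraries. Bcl3, at 1.05 and 0.85 TPM, was the highest of the 9 there but far below LPS. Pooled over the 3 Vehicle samples, the SD between libraries was 0.666 (log2) for Nfkbia and 0.894 for Nfkbiz, against 0.127 and 0.272 in LPS. The pooled Vehicle values include the spread within Vehicle 1. In Vehicle 2 the libraries stood at 92.4, 94.3 and 87.7 TPM for Nfkbia.

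The same 2 libraries of Vehicle 1 were high in several other genes, named here after their values were seen. Socs3, a feedback inhibitor gene of cytokine receptors, stood at 8.61 TPM in library 1 and at 147.5 and 282 TPM in libraries 2 and 3, and Atf3, a stress-induced factor gene, at 81.9, 625 and 1177 TPM. Irf1 and Zfp36 were raised there as well, to 117 and 197 TPM and to 1227 and 1770 TPM. The red cell genes Hba-a1, Hbb and Alas2 summed to 9.16 TPM in library 1 and to 860 and 1498 TPM in libraries 2 and 3. Red cell genes also differed between the LPS 1 libraries, at 107, 1867 and 3309 TPM, where Nfkbia stood at 329, 335 and 367 TPM. The part of any of these in the levels of Nfkbia and Nfkbiz was not tested. Without libraries 2 and 3 of Vehicle 1 the change was 2.77 for Nfkbia and 2.51 for Nfkbiz (limma adjusted p = 0.00324 and 0.00624).

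**Figure D4:**
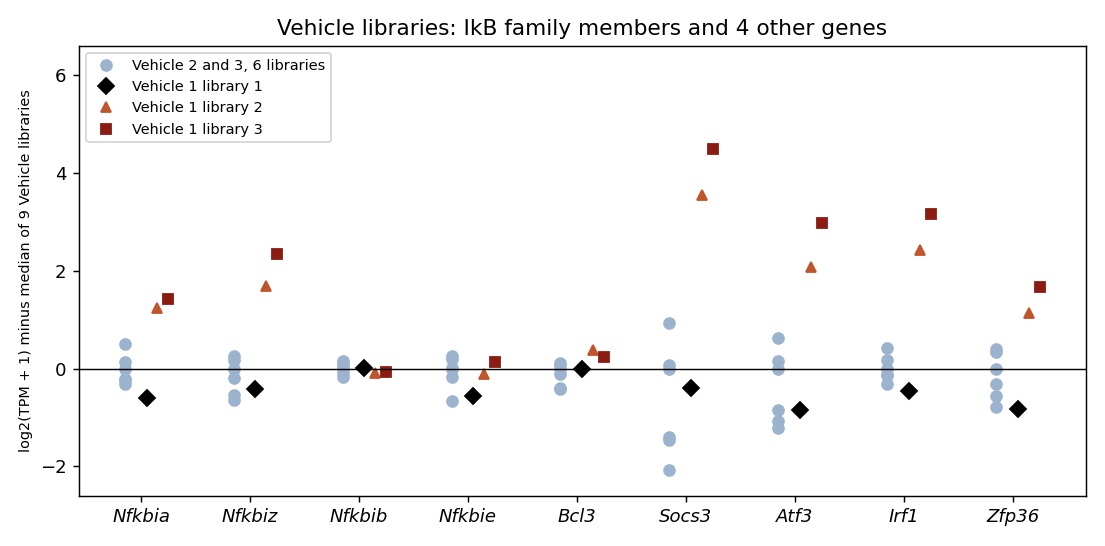
The 9 Vehicle libraries for the 5 IkB family members and 4 other genes, as log2(TPM + 1) minus the median of the 9 Vehicle libraries. Libraries 2 and 3 of Vehicle 1 lie above the other 7 for Nfkbia, Nfkbiz, Socs3, Atf3, Irf1 and Zfp36 and slightly above them for Bcl3, and within their range for Nfkbib and Nfkbie.

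Markers of the collecting duct were abundant in every sample, and 1 Vehicle sample also carried a distal tubule marker at a high level. Summed TPM of 7 principal cell markers ran from 15350 to 16980 in Vehicle and from 9102 to 12620 in LPS, and that of 6 intercalated cell markers from 6071 to 6253 and from 4345 to 5589. Called lower were 4 of the 7 and 1 of the 6, beside 22.2% of all tested genes. In bulk samples fewer cells of a type and less RNA per cell cannot be told apart. Distal convoluted tubule markers summed to 4946 TPM in Vehicle 1, with 9697, 3306 and 1835 TPM in its libraries, and to between 25.9 and 212 TPM in the other 5 samples. Nearly all of it was Calb1, which connecting tubule cells also express, while the defining marker Slc12a3 stayed under 1 TPM in every library and Pvalb was listed at 0. Both tested markers of that list, Calb1 and Trpm6, were called lower. Within Vehicle 1, Nfkbia and Nfkbiz were lowest in library 1, where that sum was highest. Thick ascending limb markers summed to 404 TPM in LPS 2 library 1 and to between 25.6 and 78.8 TPM in the other 17 libraries, and that library had 917 TPM of Nfkbia against 794 and 970 TPM in the other 2 of its sample.

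Macrophage and monocyte markers summed to between 106 and 238 TPM in Vehicle and between 184 and 423 TPM in LPS. Of the 9 tested, 4 were called higher and 1 lower, beside 7.17% and 22.2% of all tested genes. Lyz2 was the largest part of the macrophage and monocyte sum, with means of 113.5 TPM in Vehicle and 152.5 TPM in LPS. It was not called (limma adjusted p = 0.405). Cd163 was under 1 TPM in every library. Neutrophil markers ran from 0.09 to 0.293 TPM in Vehicle and from 2.07 to 78.2 TPM in LPS, with Mpo under 1 TPM in every library. The 2 of 5 that were tested, S100a8 and S100a9, passed the filter only through LPS and had to be higher. Endothelial markers summed to 19.4 to 92.2 TPM in Vehicle and 21.0 to 60.6 TPM in LPS. Called lower was 1 of 6 tested, beside 22.2% of all tested genes. The part of these cells in the changes of the IkB family was not tested. With 3 libraries in each sample, the values that follow cannot show that part. In LPS 3 the library with the highest macrophage sum, 324 TPM, had the lowest Nfkbib (43.6 TPM) of its sample. Nfkbia (959 TPM), Nfkbie (272 TPM), Nfkbiz (28.4 TPM) and Bcl3 (139.5 TPM) were highest of the sample there. That library also held the highest neutrophil sum of all libraries, 220 TPM. In LPS 2 the library with the highest macrophage sum, 382.5 TPM, had the lowest Nfkbia (794 TPM), Nfkbie (273 TPM) and Nfkbiz (14.1 TPM). Nfkbib and Bcl3 were in the middle there. In LPS 1 the library with the highest macrophage sum, 501 TPM, had the lowest Nfkbie (255 TPM) and Bcl3 (89.7 TPM). Nfkbia, Nfkbib and Nfkbiz were in the middle there. Without library 3 of LPS 3 the changes of Nfkbia, Nfkbie, Nfkbiz and Bcl3 were 2.31, 3.24, 1.93 and 6.45.

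**Figure D5:**
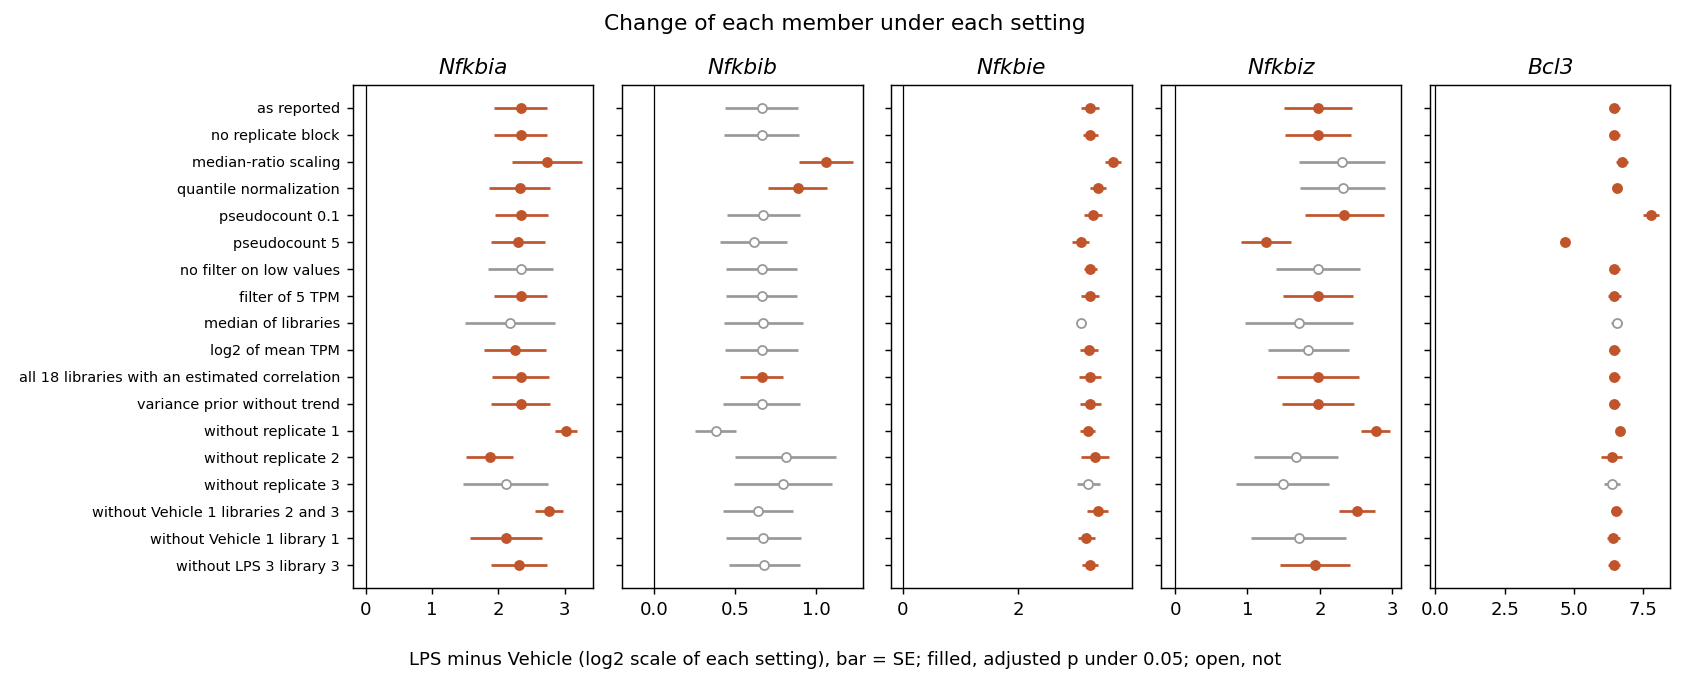
LPS minus Vehicle for each member as reported and under 17 alternative settings, with SE; filled points have an adjusted p under 0.05 and open points do not. All values lie above 0, and Nfkbiz is called in 9 of the 17 alternatives, Nfkbib in 3, Nfkbia in 14 and Nfkbie and Bcl3 in 15 each.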

How the data were processed

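The values the authors deposited are TPM, transcript abundances corrected for length and scaled to the same total, in 18 library columns. STAR 2.7.9a, RSEM 1.3.3 and the build Rnor_6.0 are named, per the submitters' processing notes; annotation, strand setting and filters were not found in the labels. Depth is unknown, so no counting interval is given. A library listed 11399 to 12704 genes at 1 TPM or more. N columns were read as normal saline and L columns as LPS.

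For each numbered sample log2(TPM + 1) was averaged over 3 libraries; near 0 this scale understates changes. The 12393 genes whose mean reached 1 TPM were fitted with limma 3.58.1 in R 4.3.3 (moderated two-sided tests with a variance trend, adjusted by Benjamini-Hochberg over these genes). Sample number entered as a block, since pairing is stated in the series' design; deviations from group means correlated by 0.0622, -0.0175 and 0.0686 within the 3 pairs. The fit leaves 2 residual degrees of freedom. A call is an adjusted p under 0.05. The code was tested on simulated data.

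Members and the 7 pathway lists were chosen with earlier results of these data known. Named genes were the members, all IkB-fold and subunit genes, the called genes of smallest p and the most abundant gene not called of each other list, and the 3 genes nearest to each member. Promoter windows, the kappaB consensus, the red cell genes and 3 alternatives that leave out libraries were added after the data were seen. Promoter coordinates are GRCr8, not the build of the table.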

Additional observations from a re-analysis of the deposited data

How the results depend on the processing

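Over the 17 alternatives every member stayed higher in LPS. Nfkbia lost its call without a filter on low values (2.33, adjusted p = 0.105), with the median of libraries (2.18) and without replicate 3. Nfkbie and Bcl3 lost it with the median of libraries (3.09 and 6.54, adjusted p = 0.0545 each), where limma called 0 genes (1019 higher and 4167 lower at an unadjusted p under 0.05), and without replicate 3. Nfkbiz lost it under median-ratio scaling and quantile normalization (2.31 each), without a filter (1.97), with the median of libraries (1.71), with log2 of the mean TPM (1.84), without replicates 2 or 3 and without Vehicle 1 library 1 (1.71), an alternative chosen, like the others that leave out libraries, after seeing the data. Nfkbib gained a call under median-ratio scaling (1.06), quantile normalization (0.89) and with all 18 libraries and an estimated correlation (0.66, adjusted p = 0.000575). Leaving out each replicate gave 1.87 to 3.02 for Nfkbia, 0.379 to 0.812 for Nfkbib, 3.20 to 3.33 for Nfkbie, 1.49 to 2.77 for Nfkbiz and 6.36 to 6.66 for Bcl3, -11.0 to 11.7 percentage points for the Nfkbia share, -17.4 to -7.97 for that of Nfkbib, 5.77 to 19.0 for that of Nfkbie and -0.592 to 0.372 for the inhibitor to subunit ratio.

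Of all genes 889 were called higher and 2757 lower, with 0 to 1004 and 0 to 3595 when each replicate was left out (0 and 0 without replicate 3, 419 and 296 without replicate 2). The counts were 18 and 2 without a filter. Lower calls numbered 460 under median-ratio scaling, 579 under quantile normalization (821 and 809 higher), 5295 with all 18 libraries and 1639 without Vehicle 1 library 1. The 7 pathway lists together had 23 higher and 4 lower, 0 to 23 and 0 to 6 leaving out replicates (12 and 0 without replicate 2), 3 and 0 without a filter, and 0 and 0 with the median of libraries. Lower calls there numbered 0 under median-ratio scaling, 14 with all 18 libraries and 7 without Vehicle 1 libraries 2 and 3. Without the replicate block they numbered 7, and 912 genes were higher and 3624 lower; every member kept its side of the threshold without the block. The depth is unknown, so what it limits cannot be stated. The cause of these dependences was not tested.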
